A study of Mus musculus with 9 samples.

Results

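The MHC class II antigen presentation genes were followed in injured tibialis anterior muscle of young and old mice. The set was 7 of the 54532 genes in the count table and was chosen by function: H2-Aa, H2-Ab1 and H2-Eb1 encode chains of the peptide-binding class II molecules, Cd74 encodes the invariant chain, H2-DMa and H2-DMb1 encode the peptide-loading molecule H2-DM, and Ciita encodes the class II transactivator. Whole-transcriptome RNA sequencing was done on 9 libraries in 3 groups of 3, all from C57BL/6J mice whose tibialis anterior had been injured with barium chloride, a salt that kills myofibres and leaves the tissue to regenerate. The young PBS group (4 months) and the old PBS group (24 months) received phosphate-buffered saline, and the old rMETRNL group (24 months) received recombinant meteorin-like protein, a secreted factor. The series description places collection on day 4, while the study text gives day 8 for the sequenced muscles. The sample labels name a muscle cell suspension and the study text names whole muscle, so the sampled material is not settled by these sources. The library titles number the samples within each group (1 to 3, and 2 to 4 for old PBS) without saying that each was a separate animal, so the p-values below measure the spread between these libraries.

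Class II molecules are assembled in the endoplasmic reticulum from an alpha and a beta chain around the invariant chain, which blocks the groove and steers the complex to endosomes. Proteases degrade the invariant chain there, and H2-DM exchanges the remaining fragment for peptides of engulfed proteins, which are then shown to CD4 T cells. Dendritic cells, B cells and macrophages are the main class II-positive cells, and in injured muscle most of them arrive from the blood.

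All 7 genes were counted in every library, from 119 counts (Ciita, old PBS replicate 4) to 19352 counts (Cd74, old PBS replicate 3), out of 16238700 to 22522560 counts per library. Together they took between 0.129% and 0.249% of a library. Skeletal muscle markers summed to between 31850 and 45923 CPM (read counts scaled to library size, with factors from the trimmed mean of M-values, TMM), as fits the labelled tissue. The 3 old PBS libraries stood apart from the other 6 in transcripts foreign to muscle: 4 brain markers summed to between 42 and 97.6 CPM there and to at most 0.944 CPM elsewhere, and 4 liver markers summed to between 4.16 and 78.4 CPM there and to at most 0.462 CPM elsewhere. Every comparison with old PBS carries that difference, and its part in the class II values was not tested. The comparison of old rMETRNL with young PBS does not use those libraries. Whether fewer cells of a type or less RNA per cell lies behind a lower value cannot be told apart in bulk tissue.

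Class II genes lie close together in the mouse major histocompatibility complex. In the GRCm38 annotation, H2-DMa (chr17:34119541-34139101), H2-DMb1 (chr17:34153072-34160230), H2-Ab1 (chr17:34257689-34269419) and H2-Eb1 (chr17:34305867-34316674) are on the plus strand, and H2-Aa (chr17:34282744-34287823) is on the minus strand. Ciita (chr16:10480059-10528418, plus strand) and Cd74 lie outside the complex. All are protein coding, and the values below are counts over their exons. H2-DMa shares 360 exon bases, 10.44% of its exon length, with Brd2 on the other strand, and Ciita shares 329 exon bases, 3.45%, with Dexi on the other strand. The sources do not state whether strand was used in counting, so reads from these stretches cannot be assigned with certainty.

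Promoters of class II genes share a module of an X box, bound by the RFX complex, and a downstream Y box, bound by NF-Y, on which the transactivator docks. The stretches below show that module, to compare it between members and accessory genes. Whether it bears on the values of these libraries was not tested. They come from RefSeq promoters of GRCm38.p6, each 250 bases before to 50 bases after a start site, in which H2-Aa, H2-Eb1, H2-DMa and H2-DMb1 had an entry among the members. H2-Ab1, Cd74 and Ciita were not matched. The search asked for AGNAAC followed by ATTGG on the strand of the gene with 25 to 45 bases between their first bases. This pair was found in 0.554% of 32851 promoters, or in 1.14% when both strands were searched. ATTGG or its complement CCAAT alone was in 37.4% of them. H2-Eb1, H2-DMb1 and the accessory genes H2-Oa, H2-Ob and H2-Eb2 held the pair, with 31 to 34 bases between the first bases. H2-Aa held it only when the first base of the X core was left free (GNAAC, a change made after its promoter was seen, which 1.66% of promoters then met). Neither of the 2 H2-DMa entries nor the H2-DMb2 entry held the letters. The stretches are shown 5′ to 3′ on the strand of the gene with 20 bases on either side, and capitals mark the X core and the Y box.
H2-Aa (chr17:34287847-34287924, minus strand): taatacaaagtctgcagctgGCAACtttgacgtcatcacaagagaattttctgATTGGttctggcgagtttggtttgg
H2-Eb1 (chr17:34305755-34305832, plus strand): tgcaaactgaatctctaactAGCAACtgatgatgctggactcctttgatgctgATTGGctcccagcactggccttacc
H2-Ob (chr17:34238797-34238872, plus strand): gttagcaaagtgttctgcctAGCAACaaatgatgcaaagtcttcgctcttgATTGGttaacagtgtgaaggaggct
H2-Eb2 (chr17:34325522-34325599, plus strand): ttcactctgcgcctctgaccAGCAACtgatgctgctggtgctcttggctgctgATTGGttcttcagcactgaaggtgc
In H2-Eb1 the X core began 92 bases before the start site and the Y box 59 bases before it. In H2-DMb1 these distances were 95 and 61 bases, and in H2-Aa they were 81 and 48 bases. H2-Ob, whose product restrains H2-DM, and H2-Eb2, a class II beta chain gene, had the same order of boxes.

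The chains of the class II molecule were abundant in all 3 groups and had close group means. H2-Aa, the alpha chain of the I-A molecule, was at 364, 349 and 361 CPM in the young PBS libraries (358 ± 7.76, SD, n = 3). It was at 291, 442 and 374 CPM in old PBS replicates 2, 3 and 4 (369 ± 75.7) and at 408, 348 and 381 CPM in old rMETRNL (379 ± 30.1). The young libraries lay close to each other, while the old PBS libraries lay on both sides of them. H2-Ab1, its beta chain, was at 338, 326 and 335 CPM in young PBS (333 ± 6.37), at 248, 424 and 322 CPM in old PBS (331 ± 88.5) and at 414, 346 and 324 CPM in old rMETRNL (361 ± 46.7). H2-Eb1, the beta chain of the I-E molecule, was at 281, 279 and 283 CPM in young PBS (281 ± 1.9), at 229, 355 and 298 CPM in old PBS (294 ± 63.3) and at 324, 281 and 275 CPM in old rMETRNL (293 ± 26.4). For both genes old PBS replicate 2 was the lowest of the 9 libraries and old PBS replicate 3 the highest. The alpha chain that would pair with H2-Eb1, the pseudogene H2-Ea-ps in C57BL/6 mice, had 0 counts in all 9 libraries, where a count of 0 allows at most between 0.131 and 0.202 CPM by library. The invariant chain gene Cd74 was at 694, 718 and 694 CPM in young PBS (702 ± 13.7), at 600, 847 and 703 CPM in old PBS (717 ± 124) and at 798, 669 and 676 CPM in old rMETRNL (714 ± 72.2). Its order over the libraries was that of the chains at both ends, with old PBS replicate 2 lowest and old PBS replicate 3 highest.

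Both peptide-loading chains had their lowest group mean in old PBS, within the spread of that group. H2-DMb1, the H2-DM beta chain, was at 26.4, 25.4 and 26.1 CPM in young PBS (26 ± 0.527), at 16.8, 28.4 and 22.3 CPM in old PBS (22.5 ± 5.79) and at 29.7, 26.1 and 26.3 CPM in old rMETRNL (27.4 ± 2.02). Old PBS replicates 2 and 4 were below all 6 other libraries and replicate 3 was not, so the groups overlapped. H2-DMa, the alpha chain, was at 21.6, 21.2 and 23.4 CPM in young PBS (22 ± 1.17), at 16.8, 23.2 and 21.3 CPM in old PBS (20.5 ± 3.32) and at 26.6, 22.6 and 20.9 CPM in old rMETRNL (23.4 ± 2.92). H2-DMb2, a second beta chain gene beside H2-DMb1, was low at 1.42 to 2.95 CPM over the libraries, and H2-DMb1 took between 91% and 94.3% of the counts of the pair. Their principal transcripts are 83.1% identical over 1413 aligned bases, and 13.7% of the 100-base windows of H2-DMb1 also occur in H2-DMb2, so a small part of either count may belong to the other.

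Ciita, the non-DNA-binding master regulator of class II transcription, followed the order of the other members only in part. It was at 14.1, 16.5 and 21.5 CPM in young PBS (17.4 ± 3.78), at 13.3, 22.1 and 7.49 CPM in old PBS (14.3 ± 7.33) and at 18.1, 17 and 16.4 CPM in old rMETRNL (17.2 ± 0.876). Its highest library was old PBS replicate 3, as for the class II chains and Cd74. Its lowest library was old PBS replicate 4, with 119 counts, where the class II chains were near their young levels.

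**Figure D1:**
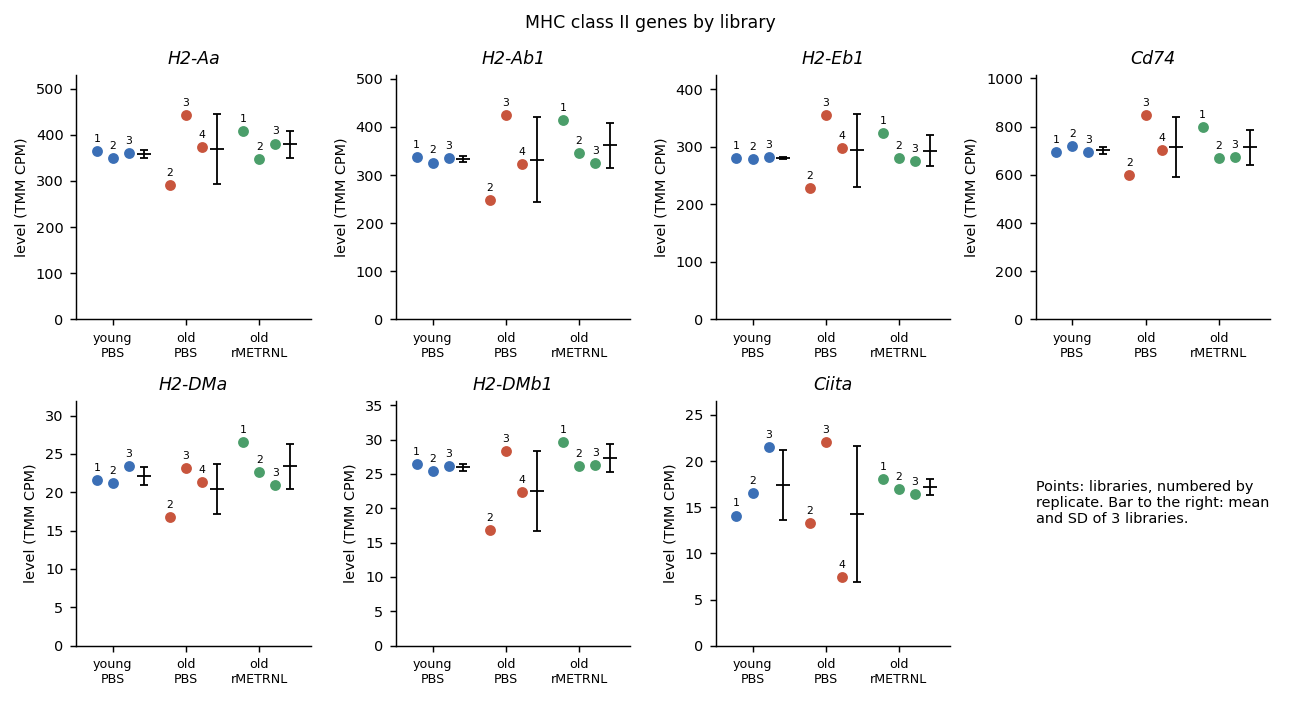
Level of each class II gene (y axis, TMM CPM, from 0) in the young PBS, old PBS and old rMETRNL groups; points are libraries numbered by replicate, and the bar beside them is the mean and SD of 3 libraries. The young libraries sit close together for every gene but Ciita. The old PBS libraries hold the lowest value of each panel and, for all genes but H2-DMa and H2-DMb1, also the highest.

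Between genes, levels were compared per length (FPKM). With the length of all annotated exons, Cd74 averaged 423 FPKM over the 9 libraries, above H2-Eb1 at 149, H2-Ab1 at 133, H2-Aa at 97.1, H2-DMb1 at 15, H2-DMa at 6.37 and Ciita at 1.71 FPKM. The order of the 3 class II chains depends on the length used, because H2-Aa has 3798 exon bases in all and 1128 in its principal transcript. With principal transcripts, the order was Cd74 at 504 FPKM, H2-Aa at 327, H2-Ab1 at 282, H2-Eb1 at 173, H2-DMb1 at 18, H2-DMa at 13.2 and Ciita at 2.71 FPKM. Cd74 was above, and H2-DMb1, H2-DMa and Ciita were below, the 3 chains in every library with both lengths. The ranges over libraries of H2-Eb1 and H2-Ab1, and of H2-Ab1 and H2-Aa, overlapped with all exons. With principal transcripts the ranges of H2-Aa and H2-Ab1, of H2-Ab1 and H2-Eb1, and of H2-DMb1 and H2-DMa overlapped.

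The comparison of old with young muscle asks what age changes in the injured tissue. None of the 7 genes differed beyond the spread between libraries: 0 of 7 passed an adjusted p of 0.05 in edgeR's quasi-likelihood test, against 0.0643% of the 15560 genes tested. At an unadjusted p under 0.05, 0 of 7 members stood against 5.91% of all genes, and DESeq2 also called 0 of 7, against 1.33% of the 19855 genes to which it gave an adjusted p. No member had groups that did not overlap, against 10.5% of genes. Of the members, 3 had a higher and 4 a lower mean in old PBS, and the median log2 difference was -0.00793, beside 0.0137 over all genes tested. The log2 difference was 0.04 for H2-Aa (standard error 0.21, 95% interval -0.44 to 0.52), -0.01 for H2-Ab1 (0.23, -0.53 to 0.52), 0.06 for H2-Eb1 (0.21, -0.42 to 0.54) and 0.03 for Cd74 (0.21, -0.46 to 0.52). These intervals leave room for up to 1.45-fold higher or 0.69 times the young level. H2-DMb1 had a log2 difference of -0.21 (0.20, -0.67 to 0.25), H2-DMa of -0.11 (0.17, -0.50 to 0.28) and Ciita of -0.28 (0.36, -1.10 to 0.55). Adjusted p-values of the 7 genes were between 0.994 and 0.998 in edgeR. The sign turned for 6 of the 7 genes when 1 library was left out, in 8 of 42 such values. Without old PBS replicate 3, H2-Aa, H2-Eb1 and Cd74 turned to -0.114, -0.102 and -0.114. Without old PBS replicate 2, H2-Ab1 and H2-DMa turned to 0.166 and 0.017, and without old PBS replicate 4 Ciita turned to 0.030. The median ran from -0.216 without old PBS replicate 3 to 0.144 without replicate 2.

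The comparison of old rMETRNL with old PBS asks what the protein changes in old muscle. Again 0 of 7 members passed in edgeR, against 0.108% of 15682 genes. At an unadjusted p under 0.05 the count was 0 of 7, against 8.07% of genes, and DESeq2 called 0 of 7, against 1.92% of the 18874 genes with an adjusted p. Groups did not overlap for 0 of 7 members, against 12.6% of genes. Means were higher in old rMETRNL for 5 members and lower for 2, with a median log2 difference of 0.121 beside -0.0056 over all genes tested. H2-DMb1 had the largest difference of the 7, 0.28 on the log2 scale (standard error 0.21, 95% interval -0.19 to 0.74, adjusted p = 0.759 in edgeR). Ciita followed at 0.26 (0.33, -0.50 to 1.01), then H2-DMa at 0.19 (0.18, -0.23 to 0.60) and H2-Ab1 at 0.12 (0.24, -0.43 to 0.67). H2-Aa was at 0.04 (0.22, -0.45 to 0.53), and H2-Eb1 and Cd74 were both at -0.01 (0.22, with intervals of -0.50 to 0.48 and -0.51 to 0.50). The widest interval, that of Ciita, leaves room for a level up to 2.02-fold higher. With 1 library left out, 10 of 42 member values turned in sign. Ciita turned to -0.063 without old PBS replicate 4. Without old PBS replicate 2, H2-Aa turned to -0.108, H2-Ab1 to -0.048 and the median of the members to -0.048. Without old PBS replicate 3, H2-Eb1 turned to 0.156 and Cd74 to 0.133, and the median was 0.293.

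Old rMETRNL against young PBS gave the narrowest intervals. In edgeR 0 of 7 members passed, against 0% of 15396 genes, and at an unadjusted p under 0.05 the count was 0 of 7, against 2.41% of genes. DESeq2 called 0 of 7, against 0% of 28257 genes, and groups did not overlap for 0 of 7, against 6.87% of genes. The median log2 difference of the members was 0.0759, beside 0.000888 over all genes tested, with 6 members higher and 1 lower. Without old rMETRNL replicate 1 the median was -0.015, and H2-Eb1, Cd74 and H2-DMa turned to -0.015, -0.060 and -0.020. Ciita turned to 0.165 without young PBS replicate 3 and to 0.014 without old rMETRNL replicate 3. The single differences ran from -0.02 for Ciita (95% interval -0.37 to 0.33) to 0.12 for H2-Ab1 (-0.16 to 0.39), and no interval reached beyond 0.77 or 1.31 times the young level. The 3 comparisons share libraries in pairs and are not independent of each other.

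**Figure D2:**
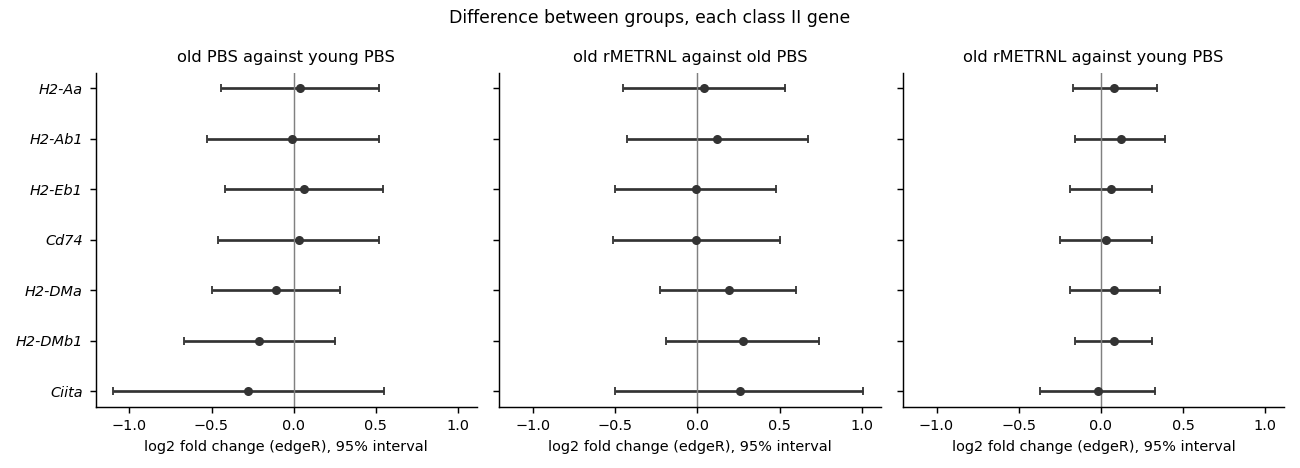
Log2 fold change (x axis) of each class II gene in the 3 comparisons; points are edgeR estimates and bars their 95% intervals. Every bar crosses 0, and the bars of the comparisons with old PBS are wider than those of old rMETRNL against young PBS.

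The spread between replicates set the groups apart more plainly than their means, and this is given as a description. In young PBS the SD of log2 CPM over 3 libraries was between 0.00972 (H2-Eb1) and 0.306 (Ciita), with a median of 0.0293 over the 7 genes. The median over the 9230 genes with a mean of at least 10 CPM was 0.153 in the same libraries, and over the 1468 genes with at least 100 CPM it was 0.158. In old PBS the SD was between 0.242 (H2-DMa) and 0.772 (Ciita), with a median of 0.319 beside 0.299 over genes of at least 10 CPM, so there the members spread about as much as other genes. In old rMETRNL it was between 0.0727 (Ciita) and 0.182 (H2-Ab1), with a median of 0.127 beside 0.131. The coefficient of variation of H2-DMb1 in young PBS, 2.03%, was below the 4.67% that counting alone gives at its depth. For the deeper H2-Aa the values were 2.17% and 1.26%, and for H2-Eb1 they were 0.674% and 1.42%. In old PBS the coefficients were 20.5% for H2-Aa, 21.5% for H2-Eb1 and 25.8% for H2-DMb1, far above counting error.

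**Figure D3:**
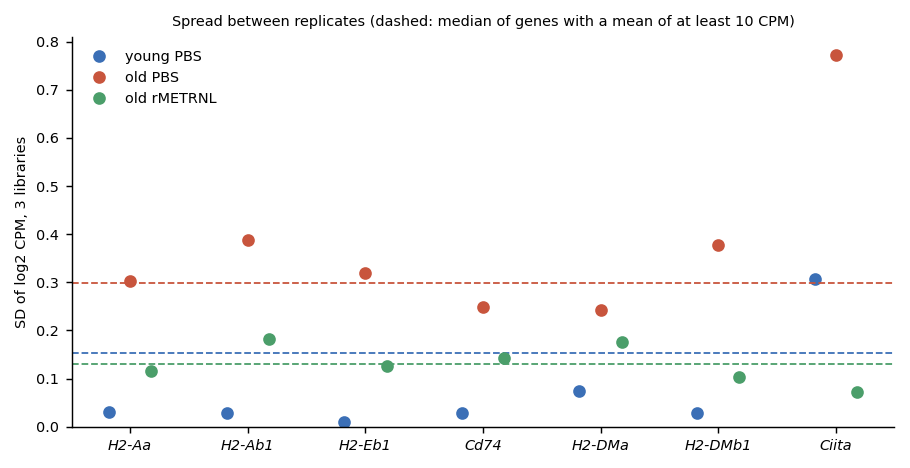
SD of log2 CPM over the 3 libraries of a group (y axis) for each class II gene; colours mark the groups, and each dashed line is the median SD of the 9230 genes with a mean of at least 10 CPM in that group. All members but Ciita lie below the line in young PBS, and they lie on either side of it in the other groups, with Ciita far above it in old PBS.

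The members other than Ciita varied together from library to library. Over the 9 libraries, Pearson's r of log2 CPM was between 0.77 and 0.97 for the 15 pairs without Ciita, with a median of 0.91, and between 0.31 and 0.54 for the 6 pairs with Ciita. Spearman's rho was between 0.45 and 0.85 for the pairs without Ciita and between 0.37 and 0.80 for those with it, so by rank the ranges largely overlapped. Old PBS replicates 2 and 3 carry much of this: without them r was between 0.36 and 0.94 for the same 15 pairs. For the 6 pairs with Ciita r was then between -0.13 and 0.77. Without the old PBS group r was between 0.65 and 0.98 for the 15 pairs over the 6 remaining libraries. The 6 pairs with Ciita had r between 0.12 and 0.50 there. These values describe libraries that share depth and scaling, and r comes without a p-value.

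Of the 7 members, 5 were highest in old PBS replicate 3 and 6 were lowest in old PBS replicate 2, where 15.2% and 16.8% of all 16124 genes kept had their highest and lowest value. Class I presentation genes had the same ends, with 7 of 9 highest and 8 of 9 lowest in those libraries. For example B2m, the light chain of class I molecules, was at 267 CPM in old PBS replicate 2, at 464 CPM in replicate 3 and at 393 CPM in replicate 4, against 312, 347 and 340 CPM in young PBS. The 5 genes whose log2 CPM correlated best with the mean of the 7 standardized members, among 14163 genes with a mean of at least 1 CPM, were Gm12258 (r = 0.98), Npl (0.98), Limd2 (0.97), Rgs14 (0.97) and H2-D1 (0.96), over 9 libraries. H2-D1 encodes a class I heavy chain, and Npl encodes a lyase of sialic acid breakdown. Without the 2 libraries farthest from the median, old PBS replicates 2 and 3, r was 0.95, 0.95, 0.94, 0.86 and 0.89 for these genes in the same order. Of the 9 macrophage markers set beside the members below, r over all libraries was between 0.48 (Adgre1) and 0.95 (C1qa). C1qc was at 0.94 and C1qb at 0.92.

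Ratios between members do not depend on how libraries are scaled. The ratio of the H2-DM chains to the I-A chains set all old PBS libraries apart. H2-DMa plus H2-DMb1 over H2-Aa plus H2-Ab1, in FPKM, was 0.0967, 0.0971 and 0.0989 in young PBS, 0.0857, 0.0838 and 0.087 in old PBS and 0.0945, 0.0976 and 0.0959 in old rMETRNL. All 3 old PBS libraries were below the other 6, although the levels themselves overlapped. The log2 difference was -0.19 for old PBS against young PBS and 0.17 for old rMETRNL against old PBS, with within-group SDs of 0.0169 to 0.0271. The two-sided exact permutation test gave p = 0.1 for each, which is the smallest that 3 against 3 libraries allow, and the adjusted p was 0.45 over 6 ratios in 3 comparisons, so neither passed. Old rMETRNL against young PBS differed by -0.02 (exact permutation p = 0.3, adjusted 0.54).

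Taken singly, H2-DMb1 set the old PBS libraries apart and H2-DMa did not, a breakdown made after these values were seen and given with no test. H2-DMb1 over H2-Aa plus H2-Ab1 was 0.0691, 0.069 and 0.0688 in young PBS, 0.0576, 0.0599 and 0.0593 in old PBS and 0.0658, 0.0686 and 0.0691 in old rMETRNL. H2-DMa over the same chains was between 0.0276 and 0.0301 in young PBS, between 0.0239 and 0.0281 in old PBS and between 0.0267 and 0.029 in old rMETRNL, so its groups overlapped. With H2-Eb1 as the denominator the summed H2-DM ratio was between 0.148 and 0.153 in young PBS, between 0.126 and 0.129 in old PBS and between 0.152 and 0.153 in old rMETRNL. With Cd74 it was between 0.0497 and 0.054, between 0.0416 and 0.0468, and between 0.0534 and 0.0554. With principal transcript lengths the summed ratio to the I-A chains was between 0.053 and 0.0548 in young PBS, between 0.0461 and 0.0482 in old PBS and between 0.0518 and 0.0543 in old rMETRNL. These versions share their numerator, and their denominators varied together over the libraries, so they are not separate results. With these denominators and lengths the old PBS libraries were the lowest 3 for the summed H2-DM chains. Set against cell markers they were not: H2-DM over the macrophage markers, in CPM, was between 0.0449 and 0.0492 in young PBS, between 0.0446 and 0.0582 in old PBS and between 0.0442 and 0.0504 in old rMETRNL. Over the markers of all leukocytes it was between 0.203 and 0.245, between 0.187 and 0.266, and between 0.2 and 0.217, and the groups overlapped.

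The other 5 ratios differed less or overlapped. Cd74 over H2-Aa plus H2-Ab1 was 1.82, 1.95 and 1.83 in young PBS, 2.06, 1.79 and 1.87 in old PBS and 1.77, 1.76 and 1.78 in old rMETRNL. The old rMETRNL libraries were below the rest, by a log2 difference of -0.11 against old PBS and -0.08 against young PBS (exact permutation p = 0.1 and adjusted p = 0.45 for both). H2-Aa over H2-Ab1 averaged 0.728 ± 0.00246 in young PBS, 0.761 ± 0.0492 in old PBS and 0.714 ± 0.0702 in old rMETRNL (SD, n = 3), and H2-Eb1 over H2-Ab1 averaged 1.12 ± 0.0174, 1.18 ± 0.0659 and 1.08 ± 0.044. H2-DMa over H2-DMb1 averaged 0.414 ± 0.0201, 0.451 ± 0.046 and 0.415 ± 0.0257, and its groups overlapped in all 3 comparisons. Ciita over H2-Aa plus H2-Ab1 was 0.00803, 0.00821 and 0.00351 in old PBS, where replicate 4 alone was low, against 0.00651, 0.00791 and 0.01 in young PBS. Adjusted p-values of these 5 ratios were between 0.45 and 1 (exact permutation test).

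**Figure D4:**
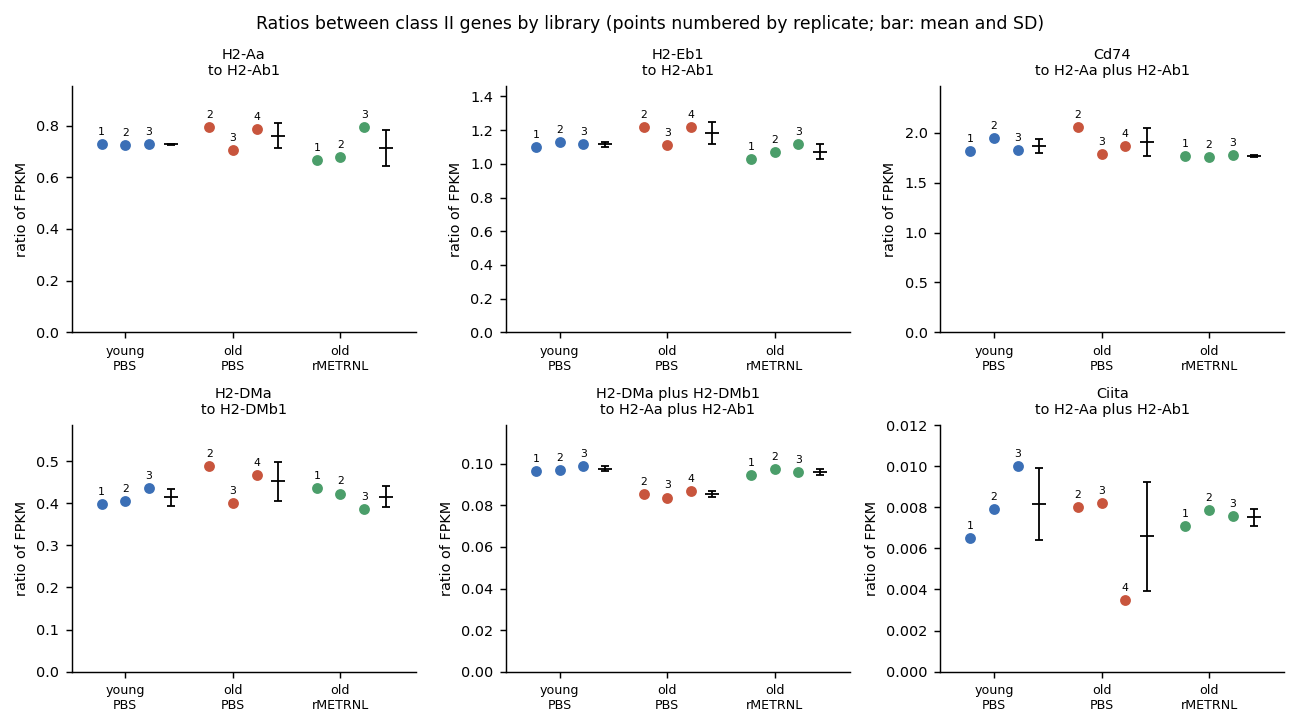
The 6 ratios between class II genes (y axis, ratio of FPKM, from 0) in each library, numbered by replicate, with mean and SD of 3 libraries. In the panel of H2-DMa plus H2-DMb1 to H2-Aa plus H2-Ab1 the 3 old PBS points, 0.0838 to 0.087, lie below the 6 others, and in the Ciita panel old PBS replicate 4 lies apart at 0.00351.

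Markers of the cells that can carry class II were set beside the members. The 9 macrophage markers summed to 977, 967 and 1101 CPM in young PBS, to 615, 1158 and 750 CPM in old PBS and to 1234, 1102 and 937 CPM in old rMETRNL. In young PBS, C1qa, C1qb and C1qc averaged 201, 219 and 144 CPM, so the sum leans on these genes. None of the 9 passed in any comparison in edgeR or DESeq2. At an unadjusted p under 0.05 in edgeR stood 2, 2 and 0 of them, against 5.91%, 8.07% and 2.41% of all genes tested. All 9 had a lower fitted level in old than in young PBS and all 9 a higher one in old rMETRNL than in old PBS. The median log2 differences were -0.188 and 0.353, beside 0.0137 and -0.0056 over all genes tested. These directions come from the same libraries, so they are not 9 separate results. The 6 members without Ciita summed to 1724, 1718 and 1722 CPM in young PBS, to 1402, 2120 and 1739 CPM in old PBS and to 2000, 1694 and 1703 CPM in old rMETRNL. Class II per macrophage marker was therefore 1.77, 1.78 and 1.56 in young PBS, 2.28, 1.83 and 2.32 in old PBS and 1.62, 1.54 and 1.82 in old rMETRNL. The old PBS libraries were the 3 highest of the 9, by a narrow step between 1.82 and 1.83. This ratio was added after the levels were seen and has no test. Ratios to 4 other cell marker lists were made in the same way, and in each the groups overlapped. Per marker of all leukocytes, class II was 8.79, 7.65 and 7.09 in young PBS, 8.31, 7.69 and 10.6 in old PBS and 7.58, 6.94 and 7.84 in old rMETRNL. In old PBS replicate 2 both sums were low, and in replicate 4 the macrophage markers were low while class II was at its young level.

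**Figure D5:**
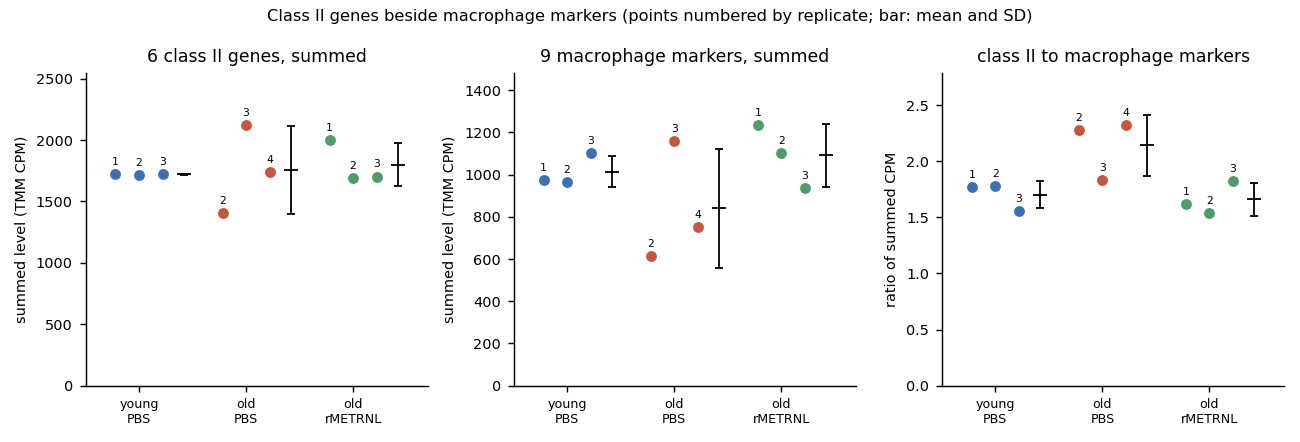
Summed level of 6 class II genes (left), of 9 macrophage markers (middle; both TMM CPM, from 0) and their ratio (right) in each library, numbered by replicate, with mean and SD of 3 libraries. The ratio is between 1.54 and 1.82 in the young PBS and old rMETRNL libraries and between 1.83 and 2.32 in the old PBS libraries.

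Marker sums of the other candidate cells were smaller, but such sums compare different genes and do not rank the cells. In young PBS, Itgax averaged 22.8 of the 54.6 CPM of the dendritic cell list, and Cd22 averaged 5.47 of the 9 CPM of the B cell list. The 8 dendritic cell markers summed to between 38.9 and 65.4 CPM over the 9 libraries, and the 8 B cell markers to between 5.73 and 14 CPM. B cell sums were 8.73, 7.94 and 10.3 CPM in young PBS, 5.73, 12.9 and 10.6 CPM in old PBS and 12.1, 14 and 9.74 CPM in old rMETRNL. The 4 markers of all leukocytes were lowest in old PBS replicates 4 and 2, at 164 and 169 CPM, and highest in replicate 3, at 276 CPM. Of the lymph node stroma markers, Ccl19 and Ccl21a had 0 counts in all 9 libraries, and Glycam1 had 0 counts in young PBS and old PBS and at most 3 per library in old rMETRNL. The 7 T cell markers, a list of CD4 and CD8 T cells together, had a median log2 difference of 1.39 in old against young PBS. In old rMETRNL against old PBS it was -1.01. At an unadjusted p under 0.05 in edgeR stood 5 and 4 of them, against 5.91% and 8.07% of all genes tested. None passed the adjusted threshold in edgeR or DESeq2. Cd4, a marker of the T cells that read class II, went against the other 6, at -0.12 (standard error 0.35) and 0.58 (0.37). Cd4 averaged 5.99 CPM in young PBS and 8.27 CPM in old rMETRNL, above Cd3e at 1.93 and 1.27 CPM. Whether its reads came from T cells was not tested, so its direction does not show that of CD4 T cells. Some markers rested on few reads, such as Cd3d and Trac at means of 0.581 and 0.728 CPM in young PBS. How far any of these cells account for the class II values was not tested.

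The other genes of the pathway were read from 6 lists of 43 genes, of which 41, 39 and 41 could be tested in the 3 comparisons in the order above. None passed in edgeR or in DESeq2 (0 in each direction), and 1, 0 and 1 of them had an unadjusted p under 0.05 in edgeR, beside the shares of all genes given above. Upstream of the members stands the interferon gamma route to Ciita. Ifng, its ligand, had 0 to 5 counts per library. Irf1, a transcription factor that acts on the Ciita promoter, was at 17.5, 31.7 and 25.2 CPM in old PBS, lowest in replicate 2 and highest in replicate 3 of that group. The route as a list did not share that order. Of its 8 genes, 2 were highest in old PBS replicate 3 and 2 were lowest in replicate 2 over the 9 libraries. Jak2 and Ifngr2 were lowest in replicate 3 of old PBS, at 70.5, 41.7 and 65.7 CPM and at 73.2, 49.8 and 73.3 CPM. Differences named in the route were those of Jak2 in old PBS and in old rMETRNL against young PBS (log2 -0.26, standard error 0.23, and -0.25, 0.16), and of Irf1 in old against young PBS (-0.20, 0.22) and in old rMETRNL against old PBS (0.28, 0.24). Their adjusted p-values were between 0.79 and 1 in edgeR. The 7 promoter factors, subunits of RFX and NF-Y and Creb1, summed to between 153 and 173 CPM over the libraries. The largest differences among them were of Nfyb (log2 0.21, -0.35 and -0.12 in the 3 comparisons in the order above), Nfya (-0.21 and 0.31 in the first and the second) and Rfxap (-0.20 in the third), with adjusted p-values of 0.721 or more in edgeR.

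The genes that act with class II in the endosome were 7 proteases and helpers. Ifi30, a thiol reductase that unfolds antigen, was at 33.5, 33.6 and 43.4 CPM in young PBS, at 19.5, 36 and 29.1 CPM in old PBS and at 42.2, 35.4 and 37.9 CPM in old rMETRNL. Its log2 difference was -0.39 (standard error 0.24, adjusted p = 0.986) in old against young PBS and 0.44 (0.22, 0.664) in old rMETRNL against old PBS in edgeR. Ctss, the protease that trims the invariant chain, had a log2 difference of -0.36 (0.28) in old against young PBS, and Lgmn, an endosomal endopeptidase, one of 0.34 (0.28) in old rMETRNL against old PBS and of 0.12 (0.12) against young PBS. Ctsd, an aspartic protease, was lower in all old rMETRNL libraries than in all young ones by a log2 difference of -0.15 (0.11, adjusted p = 1), where 6.87% of all genes had groups apart. Ctsb was at 717 to 796 CPM in old PBS, below all young PBS (log2 -0.28, 0.20) and all old rMETRNL libraries (0.31, 0.20). In these comparisons 10.5% and 12.6% of all genes had groups apart, and the other genes of the list overlapped in both. The median over the list was -0.221, 0.307 and 0.033 in the 3 comparisons.

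Accessory class II genes were low. H2-Oa and H2-Ob, the chains of H2-DO, were at 0.173 to 0.906 CPM and at 1.35 to 2.9 CPM, and their largest log2 differences were 0.47 (H2-Oa, standard error 0.57, old rMETRNL against young PBS) and 0.09 (H2-Ob, 0.37, old against young PBS). H2-DMb2 had a log2 difference of -0.16 (0.34) in old against young PBS and of 0.45 (0.36) in old rMETRNL against old PBS. H2-Eb2 had 12, 20 and 16 counts in young PBS, 4, 15 and 7 in old PBS and 10, 9 and 7 in old rMETRNL. In CPM it was lower in all old than in all young libraries, by log2 differences of -0.94 (standard error 0.50, adjusted p = 0.951) in old PBS and -1.0 (0.45, adjusted p = 1) in old rMETRNL in edgeR, on few reads. Groups were apart for 10.5% and 6.87% of all genes in these comparisons. Among the genes of class II turnover and co-stimulation, Il10, a cytokine that lowers surface class II, had 12, 13 and 10 counts in young PBS, 3, 5 and 6 in old PBS and 12, 19 and 6 in old rMETRNL. Its log2 difference in old against young PBS was -1.30 (0.52, adjusted p = 0.767 in edgeR). Cd80 differed by -0.28 and -0.19 against young PBS in old PBS and old rMETRNL, Il10ra by -0.18 in the latter, and Cd40 and Cd86, co-stimulatory molecules, by 0.18 each in old rMETRNL against old PBS. Among the 9 genes of class I presentation, the largest log2 differences were of B2m (0.17 and -0.17 in the first and the second comparison), Psmb9 (0.16 in the first), Nlrc5, the transactivator of class I genes (-0.30 and -0.33 in the second and the third), and Tap1 (-0.11 in the third).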

How the data were processed

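RNA was sequenced in 9 libraries of injured tibialis anterior muscle, 3 in each group. The authors aligned reads and counted them per gene, and they deposited 1 table of raw counts. The submitters' processing notes name STAR, featureCounts and mm9, and versions and the strand setting are not given in the sources used here. Of 54532 gene IDs, 54409 matched a symbol. Coordinates and exon lengths come from GENCODE M21 (GRCm38), so FPKM is approximate. Libraries held 16238700 to 22522560 counts. A floor of 3 counts corresponds to 0.131 to 0.202 CPM on the TMM scale and covers counting error only. Intervals are at the 95% level.

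Counts of the 2 groups compared were filtered with filterByExpr, TMM-scaled and tested with edgeR 4.0.16 (R 4.3.3) quasi-likelihood, Benjamini-Hochberg adjusted over all genes tested, at 0.05. DESeq2 1.42.0 was the alternative. On simulated data for old rMETRNL against young PBS (15192 genes, 200 changed), edgeR made 203 calls, of which 191 were true. The planted changes were far larger than any member difference, the dispersion was the same for all genes, and old PBS was not simulated. This checks the code and cannot give the power to detect differences as small as those of the members. Log2 CPM used a prior count of 2. Ratios were compared by exact permutation. Named genes were the members, the 2 largest differences per pathway list and comparison, any listed gene that passed, H2-DMb2, H2-Ea-ps, H2-Oa, H2-Ob, the 5 genes most like the members, and defining markers at 0; 1 gene that this rule names is not reported here. Some listed genes and libraries were named as examples after their values were seen. The members and lists were chosen with earlier results of these data known.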

Additional observations from a re-analysis of the deposited data

How the results depend on the processing

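No member passed in any comparison under any alternative: scaling by DESeq2 size factors, testing without the filter, asking for 10 or more counts throughout, the DESeq2 Wald test, all 9 libraries in 1 fit, the replicate block, or leaving out each library in turn. Across those, 76 of 84, 71 of 84 and 79 of 84 member values kept their sign in old PBS against young PBS, old rMETRNL against old PBS and old rMETRNL against young PBS, and the lowest adjusted p was 0.194, 0.0875 and 0.908. With all libraries kept, 3 values turned in sign, all in old rMETRNL against old PBS: H2-Eb1 to 0.009 and Cd74 to 0.008 without the filter, and Ciita to -0.049 with the replicate block. The cause was not tested.

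With 1 library left out, the log2 difference in old PBS against young PBS ran from -0.114 to 0.188 for H2-Aa, -0.231 to 0.166 for H2-Ab1, -0.102 to 0.216 for H2-Eb1, -0.114 to 0.144 for Cd74, -0.216 to 0.017 for H2-DMa and -0.749 to 0.030 for Ciita. In old rMETRNL against old PBS it ran from -0.108 to 0.190 for H2-Aa, -0.048 to 0.343 for H2-Ab1, -0.157 to 0.156 for H2-Eb1, -0.119 to 0.133 for Cd74 and -0.063 to 0.726 for Ciita. In old rMETRNL against young PBS it ran from -0.015 to 0.105 for H2-Eb1, -0.060 to 0.071 for Cd74, -0.020 to 0.159 for H2-DMa and -0.151 to 0.165 for Ciita. Log2 ratios that turned ran from -0.028 to 0.074 (Cd74 to H2-Aa plus H2-Ab1) and -0.593 to 0.019 (Ciita to the same) in old PBS against young PBS, from -0.114 to 0.498 (Ciita) in old rMETRNL against old PBS, and from -0.112 to 0.014 (H2-Aa to H2-Ab1), -0.033 to 0.054 (H2-DMa to H2-DMb1) and -0.245 to 0.065 (Ciita) in old rMETRNL against young PBS. The ratio of H2-DM to H2-Aa plus H2-Ab1 kept its sign in all of them. The median of the members ran from -0.216 to 0.144, -0.048 to 0.293 and -0.015 to 0.104 in the 3 comparisons.

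Calls over all genes depended more on the setting. In old PBS against young PBS, 10 genes became 354 without the filter, 3 with at least 10 counts in every library, 265 with DESeq2 and 63 with all libraries in 1 fit, and ran from 2 to 401 with 1 library left out, 401 without old PBS replicate 3. In old rMETRNL against old PBS, 17 became 740, 1, 362 and 71 under the same settings, and ran from 3 to 1560, 1560 without old PBS replicate 3. In old rMETRNL against young PBS, 0 became 132 without the filter and ran from 0 to 1. Deviations of same-numbered libraries from their group means had correlations of -0.316 to 0.412. With means of 3 libraries these cannot decide whether the numbers pair the samples, so the main fits used no pairing. The replicate block gave 65 calls in old rMETRNL against old PBS, 11 in old PBS against young PBS and 0 in old rMETRNL against young PBS. Of the 5 genes most like the members, 2 stayed within the first 50 by Spearman's rho and 3 without the 2 farthest libraries. A spacing of 30 to 40 bases lowered the share of promoters with the module to 0.265%. With 3 libraries a group, exact permutation cannot give p below 0.1, and shallow genes such as H2-Eb2 and Il10 rest on 3 to 20 counts.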
